A study of Caenorhabditis elegans with 16 samples.

Results

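Adult prg-1 null males were compared with wild type males of Caenorhabditis elegans through their small RNA. The libraries were chosen by title: all 5 titled as prg-1 null and all 5 titled as wild type, which are 10 of the 16 libraries of the series. The study asked how piRNA levels differ between males with and without a working PRG-1, and the other 6 libraries carry other prg-1 mutations. Each sample was small RNA of 20 to 30 whole males, which were kept at 25 °C and collected 24 hours after they had been picked at the mid-L4 larval stage. The controls are described only as wild type, and the sources used here do not name the null allele. No label states whether libraries of 1 genotype were grown as separate cultures, so a p-value reflects only the spread between libraries, part of which may be technical.

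PRG-1 is the Piwi-clade Argonaute of this worm. It binds piRNAs, called 21U-RNAs here for their length and first base, which are transcribed one by one from a very large number of small genes, most of them in a pair of clusters on chromosome IV. A bound piRNA guides PRG-1 to other transcripts in the germline, where RNA-dependent RNA polymerases then make secondary small RNAs that worm-specific Argonautes use to silence, or in the case of CSR-1 to license, the transcript. In males the pathway acts in a germline that makes only sperm.

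Genome-mapped reads ran from 781546 to 1860189 in the wild type libraries and from 1185732 to 2288967 in the null libraries. Levels below are RPM, reads for every 1000000 genome-mapped reads. The genome-mapped percentage of all reads was 45.1, 64, 39.8, 48.7 and 68.3 in wild type replicates 1 to 5 and 62.1, 67.3, 73.3, 82.3 and 80 in null replicates 1 to 5. These groups overlapped, with means 53.2 ± 12.4% (SD, n = 5) and 73.0 ± 8.47% (SD, n = 5). The exact two-sided permutation test gave p = 0.0397 (adjusted p = 0.0476 over 6 library measures), and leaving out 1 library gave exact permutation p from 0.0238 to 0.0714. The adjusted p was above 0.05, and the call was lost, when any of 7 libraries was left out (wild type replicate 1, 3 or 4, or null replicate 2, 3, 4 or 5). Replicates 1 to 3 and replicates 4 and 5 stood apart in both genotypes. Chromosome IV took 31.4 to 38.4% of reads in null replicates 1 to 3 but 15.7 and 17.0% in null replicates 4 and 5, and in wild type 27.4 to 46.4% against 20.9 and 19.8%. Chromosome V took 7.41 to 8.33% in null replicates 1 to 3 and 15.3 and 15.0% in null replicates 4 and 5, and in wild type 5.90 to 8.13% against 24.4 and 14.4%. Values of the sets are given for some bins below, and a call over all libraries was not always kept in each set alone. No chromosome's share differed between null and wild type by the exact permutation test. The lowest exact permutation p was 0.103, for chromosome III, with 11.0% in wild type and 13.3% in the null (adjusted p = 0.648 over 7 chromosomes).

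The bin that holds prg-1 itself had fewer small RNA reads in the null. This bin (chromosome I, 7500001 to 7600000 of ce11) held 427, 592, 224, 493 and 589 RPM in wild type replicates 1 to 5. It held 182, 162, 118, 199 and 216 RPM in null replicates 1 to 5, below every wild type library (edgeR log2 fold change -1.41 ± 0.25 (SE), adjusted p = 8.88e-05). It also holds 23 other protein-coding genes, among them goa-1, a G protein alpha subunit, and chs-1, a chitin synthase. Small RNA reads of a whole bin do not measure the prg-1 transcript, so the value is no check of the null mutation.

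Null males had very few 21U-only reads, a class that the authors counted separately among reads at annotated piRNA loci and whose exact rule no label states. Wild type replicates 1 to 5 held 1354, 2207, 974, 484 and 1311 RPM of them. Null replicates 1 to 5 held 14.3, 15.7, 17, 2.64 and 10.9 RPM, from 17, 27, 39, 5 and 20 reads. The highest null library was far below the lowest wild type library, and within the null, replicate 4 was the lowest. Other sense reads at the same loci, which map to a piRNA gene without being 21U only, were at 808, 997, 627, 645 and 791 RPM in wild type replicates 1 to 5. They were at 277, 254, 248, 456 and 588 RPM in null replicates 1 to 5, so the groups did not overlap, but null replicates 4 and 5 came close to the lowest wild type library.

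The ratio of the null to the wild type mean was 0.00957 for 21U-only reads and 0.471 for other sense reads. For both, the exact two-sided permutation test reached its smallest possible value with 5 against 5 libraries, p = 0.00794 (adjusted p = 0.0119 over 6 measures). The fall of other sense reads was larger in replicates 1 to 3, at 0.320 of wild type, than in replicates 4 and 5, at 0.727. It no longer passed with all reads of the library as the denominator (ratio 0.650, exact permutation p = 0.159). In bulk RNA, fewer cells of a type and less RNA per cell cannot be told apart.

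**Figure D1:**
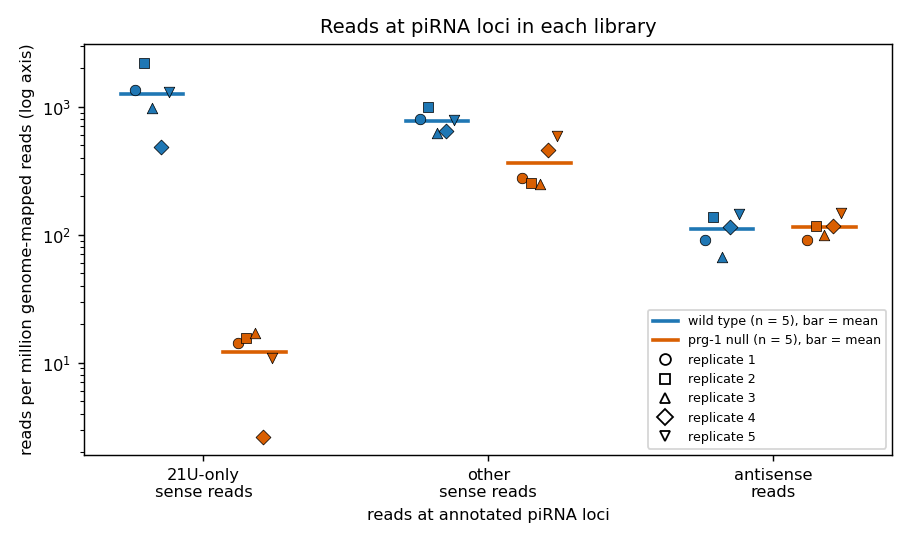
Level of reads at annotated piRNA loci in RPM (log axis) in each of the 5 wild type and 5 prg-1 null libraries, with 1 symbol per library and a bar at each mean. The 21U-only reads fall from a mean of 1266 RPM to 12.1 RPM and other sense reads from 774 to 364 RPM, while antisense reads overlap around 111 and 114 RPM.

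Antisense reads at piRNA loci did not follow the sense reads. They were at 90.2, 137, 67, 115 and 146 RPM in wild type replicates 1 to 5 and 91.1, 116, 99.6, 117 and 147 RPM in null replicates 1 to 5. The groups overlapped over most of their range, and the ratio of means was 1.03 (exact permutation p = 0.802). Antisense reads made up 4.01, 4.09, 4.02, 9.26 and 6.49% of all reads at these loci in wild type replicates 1 to 5 and 23.8, 30.1, 27.3, 20.4 and 19.8% in null replicates 1 to 5. Every null library was above every wild type library in this percentage, for which no test was made. The share of sense reads that were 21U only was 62.6, 68.9, 60.8, 42.9 and 62.4% in wild type and 4.93, 5.81, 6.44, 0.576 and 1.82% in the null. Its Wilson 95% interval, which covers counting error only, was 0.246 to 1.34% in null replicate 4 and 4.74 to 8.68% in null replicate 3, so the null libraries differed among themselves by more than counting error. The number of piRNA names with at least 1 sense read was 612, 921, 368, 149 and 499 in wild type replicates 1 to 5 and 87, 123, 120, 209 and 263 in null replicates 1 to 5. These numbers are not corrected for depth, and wild type replicate 4 detected fewer names than null replicates 4 and 5.

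Single piRNAs could be followed in replicates 1 to 3 of each genotype, with names as the authors' table pairs them with counts. The most abundant, cel-piR-6101, had 220, 415 and 112 reads in wild type replicates 1 to 3 and 0, 0 and 2 reads in null replicates 1 to 3 (log2 fold change -8.55 ± 0.74, edgeR adjusted p = 1.24e-06). cel-piR-733 had 60, 244 and 78 reads in wild type against 0, 1 and 0 in the null (adjusted p = 1.31e-05). cel-piR-4338 had 80, 144 and 43 reads against 0, 0 and 1 (adjusted p = 1.63e-05). Wild type replicate 2, the deepest wild type library, gave the highest count of each. The next by adjusted p were cel-piR-10692 (11, 15 and 10 reads in wild type), cel-piR-8981 (13, 12 and 10 reads) and cel-piR-871 (76, 129 and 32 reads), none of which had a read in the null. For these a level of up to 3 counts over the 3 null libraries, 0.577 RPM, cannot be told from 0. All piRNAs named so far passed the filter of at least 10 counts in at least 3 libraries through wild type libraries alone. They could only come out lower, so their p-values are given as a description.

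Of 27 piRNAs with enough reads to test, 19 were lower in the null (70.4% of those tested), 0 were higher and 8 were not called. At an unadjusted p under 0.05 edgeR again had 0 higher, and so did DESeq2 with an adjusted p under 0.05. All 19 passed the filter on low counts through wild type libraries alone and so had to be lower, which is why their number is given as a description. Together they had 3153 reads in wild type replicates 1 to 3 and 11 in null replicates 1 to 3, and 10 of them had no null read. The 8 piRNAs that were not called held 706 reads in the null, 49.9% of all null sense reads, but 5.26% of the wild type reads. With wild type replicate 1, 2 or 3 left out, only 6 to 8 piRNAs had enough reads and 0 or 1 was called. With the total of piRNA reads as library size, which itself is lower in the null, edgeR called all 8 higher. They are cel-piR-1592, cel-piR-12706, cel-piR-156, cel-piR-15421, cel-piR-15149, cel-piR-898, cel-piR-15075 and cel-piR-1707.

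Among those 8, cel-piR-156 had 49, 67 and 29 reads in wild type replicates 1 to 3 and 54, 70 and 126 in null replicates 1 to 3. In RPM every null library was above every wild type library, at 47.1 ± 7.34 against 34.3 ± 5.50 (SD, n = 3), but the difference was not called (log2 fold change 0.45, edgeR adjusted p = 0.450). cel-piR-1707 had 11, 22 and 13 reads in wild type and 16, 22 and 29 in the null, again with all null libraries above in RPM and no call (log2 fold change 0.23, adjusted p = 0.700). cel-piR-12706 had 23, 66 and 4 reads against 29, 56 and 91, and cel-piR-1592 had 80, 57 and 5 against 25, 30 and 25. In both, wild type replicate 3 was far below the other 2 wild type libraries, and without it cel-piR-1592 was called lower (log2 fold change -1.53, edgeR adjusted p = 0.0162). The other 4 had between 0 and 21 reads per library in wild type and between 4 and 21 in the null, with adjusted p from 0.530 to 0.598. No antisense read mapped to any of the 27. Over all names, 1314 had a sense read in wild type replicates 1 to 3 and 272 in null replicates 1 to 3. The 142 names found in both were 10.8% of the wild type names and 52.2% of the null names, and they held 78.7% of the null reads.

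Beyond piRNA loci, small RNA across the genome differed in many places. The authors' table gives reads in 1006 bins of 100 kb, which tile all chromosomes, and all 1006 were tested. A bin is called here when its edgeR quasi-likelihood test had a Benjamini-Hochberg adjusted p under 0.05. By that rule 405 bins differed (40.3%): 121 were higher in the null (12%) and 284 lower (28.2%). All 5 null libraries lay above all 5 wild type libraries in 98 bins (9.74%), and below them in 151 (15%). Of the higher bins 81 rose by at least 1 on the log2 scale and 4 by at least 3, and of the lower bins 182 fell by at least 1 and 13 by at least 3.

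The balance of higher and lower depends on scaling. The median log2 fold change over all bins was -0.29, and TMM factors, which assume that most bins do not change, moved it by 0.31 to 0.02. With TMM, 238 bins were higher (23.7%) and 191 lower (19%), so higher bins were 55.5% of calls and not 29.9%. DESeq2 with its own size factors gave 217 higher and 232 lower. A fold change below is therefore best read against the median bin, and TMM counts stand beside the counts of each group of bins.

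RPM sum to the same total in every library, so gains in some bins are matched by losses in others. The 121 higher bins together held 51620.2, 75435, 45019, 66695 and 83028 RPM in wild type replicates 1 to 5 and 147589, 159713, 161410.0, 190482 and 193481 RPM in null replicates 1 to 5. The 284 lower bins held a mean of 176222 RPM in wild type against 61858 RPM in the null. These sums describe bins picked by the same contrast and are not tested. The 10 bins with the largest gains made up 29.3% of the gain, and the 10 with the largest losses 43.3% of the loss. Bins that were not called held most reads, 759418 RPM in wild type against 767606 RPM in the null. The 10 richest bins of each library took 47.2 ± 8.84% of reads in wild type and 45.2 ± 5.18% in the null (exact permutation p = 0.714).

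**Figure D2:**
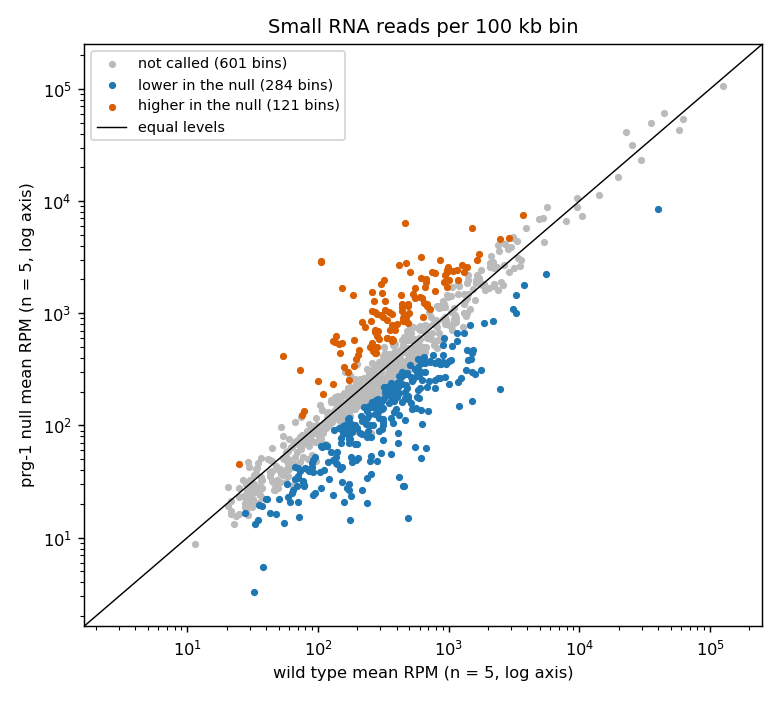
Mean RPM of each of the 1006 bins of 100 kb in wild type (horizontal) and in the prg-1 null (vertical), both on log axes with n = 5, coloured by call, with a line at equal levels. The 121 higher and 284 lower bins lie on both sides of the line at low and middle levels, and nearly all of the richest bins are not called.

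The median absolute log2 difference over bins between 2 null libraries was 0.199 to 0.492 over 10 pairs. Between 2 wild type libraries it was 0.253 to 0.888 over 10 pairs, and 0.253 to 0.485 over the 6 pairs without replicate 3. Between a wild type and a null library it was 0.519 to 0.938 over 25 pairs. No pair of libraries came near sampling noise, with chi-square per degree of freedom of at least 41.2. By this measure null pairs within a replicate set (1 to 3, or 4 and 5) were at 41.2 to 75.1, but null pairs across the sets at 420 to 631. Pairs of a wild type and a null library within a set were at 220 to 610. The difference between replicate sets in the null was thus as large by this measure as that between genotypes. Of the 405 called bins, 401 had the same direction in replicates 1 to 3 and in replicates 4 and 5, against 392 of the 601 that were not called (65.2%). The calls were made over both sets together, so this agreement is largely built in and is no independent check.

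The bin with the largest rise lies near the left end of chromosome V (chromosome V, 200001 to 300000). It held 120.3, 98.4, 113, 90.8 and 104 RPM in wild type replicates 1 to 5 and 2282, 2752, 2758, 3449 and 3512 RPM in null replicates 1 to 5. Wild type values were within a narrow range and every null library was far above it, with a mean 28.0 times that of wild type (edgeR log2 fold change 4.81 ± 0.26 (SE), adjusted p = 6.52e-12). The bin holds 17 protein-coding genes and no piRNA, miRNA, tRNA or rRNA gene. Among them are the kinase genes kin-33 and kin-34, the neuropeptide gene nlp-70, the neuropeptide receptor gene npr-5 and trpp-1, a subunit of the TRAPP vesicle-tethering complex. Reads of a bin are given without strand and without the gene they come from.

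The second largest rise was on chromosome IV (chromosome IV, 3300001 to 3400000). It went from 67.3, 86.6, 59.2, 205 and 109 RPM in wild type to 2051, 2473, 2810.0, 3416 and 3706 RPM in the null, 27.5 times in the mean (edgeR log2 fold change 4.79 ± 0.34 (SE), adjusted p = 6.88e-10). The highest wild type library, replicate 4, was far below the lowest null library. Its 22 protein-coding genes include hrpa-1, an hnRNP A1 homologue, vha-19, a proton pump subunit, dyf-3, which acts in sensory cilia, and elks-1, a presynaptic scaffold. The third was at the right end of chromosome I (chromosome I, 14800001 to 14900000), which holds unc-54, the main body-wall muscle myosin heavy chain, and the convertase gene aex-5. It held 315, 484, 297, 493 and 710.3 RPM in wild type and 5911, 5857, 5212, 7358 and 7235 RPM in the null, the largest rise in RPM of any bin on that chromosome (edgeR log2 fold change 3.78 ± 0.29 (SE), adjusted p = 1.72e-09). Again no library overlapped.

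The bin of ced-9, a Bcl-2 homologue that blocks cell death, and mev-1, a subunit of succinate dehydrogenase, came next (chromosome III, 10300001 to 10400000). It rose from 146, 154, 57.3, 192 and 216 RPM to 1257, 1644, 1639.6, 2036 and 1855 RPM (edgeR log2 fold change 3.46 ± 0.30 (SE), adjusted p = 6.19e-09). Wild type replicate 3 was the lowest library there, as it was in 8 of the 12 bins with the largest rises. A cluster of chemoreceptor genes of the sre family on chromosome II (chromosome II, 12400001 to 12500000, which also holds daf-22, an enzyme of pheromone synthesis) went from 53.5 ± 15.5 to 419 ± 49 RPM (SD, n = 5, log2 fold change 2.97). The bin of smg-1, a kinase of nonsense-mediated decay, and rege-1, an RNase, rose as well (chromosome I, 6900001 to 7000000). It held 258 ± 79 RPM in wild type against 1551 ± 51.7 RPM in the null, where the 5 libraries lay between 1470.2 and 1606 RPM.

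The other 6 of the 12 largest rises had log2 fold changes between 2.38 and 2.98. On chromosome IV 2 neighbouring bins (chromosome IV, 2700001 to 2800000 and 2800001 to 2900000) rose by 2.98 and 2.64. They hold atln-1, an atlastin GTPase, and a group of C-type lectin genes from clec-80 to clec-85. The bin of lin-10 and of mau-2, a cohesin loader, rose by 2.69 (chromosome I, 8100001 to 8200000). The bin of spe-57 and the tubulin gene tba-4 (chromosome II, 10900001 to 11000000) rose by 2.59, and so did that of spe-40 and osm-3, a kinesin of cilia (chromosome IV, 3700001 to 3800000). The 12th was the bin of insulin-like genes ins-21, ins-22 and ins-23 (chromosome III, 10000001 to 10100000), from 615 ± 129.6 to 3201 ± 393 RPM. None of the 12 bins lies on chromosome X, which holds 178 of all 1006 bins. None of the 12 holds more than 2 piRNA genes, but most bins hold few. Of all 1006 bins, 453 hold none and another 485 hold 1 to 9. Whether the 12 differed from all bins in either respect was not tested. With TMM factors each of the 12 kept its direction. Each also kept it in replicates 1 to 3 alone and in replicates 4 and 5 alone. That follows from listing only bins in which the groups did not overlap.

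Of the 12 largest falls, 6 were on chromosome X, which holds 178 of the 1006 bins. The share of lower bins was 31.5% on X beside 28.2% of all bins, and whether X was over-represented among the largest falls was not tested. The bin with the largest fall lies near its left end (chromosome X, 200001 to 300000) and holds 14 pseudogenes, 10 protein-coding genes, among them set-28, and the miRNA genes mir-258.1 and mir-258.2. It went from 340.3, 495, 346, 540.0 and 732 RPM in wild type replicates 1 to 5 to 16.9, 23.8, 11.4, 9.52 and 13 RPM in null replicates 1 to 5 (edgeR log2 fold change -5.04 ± 0.33 (SE), adjusted p = 2.12e-10). The null values come from 20, 41, 26, 18 and 24 reads. Its neighbour (chromosome X, 100001 to 200000), with F-box genes fbxa-16, fbxa-221 and fbxa-222, fell from 127, 217, 69, 154 and 315 to 32.9, 10.4, 9.17, 11.6 and 7.07 RPM (log2 fold change -3.67). There null replicate 1 was well above the other null libraries and yet below every wild type library.

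The bin of aak-2, a catalytic subunit of AMP-activated kinase, and hda-4, a histone deacetylase, was second (chromosome X, 16700001 to 16800000). It held 407, 513, 290.4, 517 and 540.3 RPM in wild type and 49.8, 37.7, 12.7, 25.4 and 17.9 RPM in the null (edgeR log2 fold change -4.0 ± 0.32 (SE), adjusted p = 3.03e-09). The bin of vha-12, a proton pump subunit, and nck-1, an adaptor of actin signalling (chromosome X, 4100001 to 4200000), held 446 ± 111 RPM in wild type against 29 ± 6.13 RPM in the null (a log2 fold change of -3.94). The bin of dop-4, a dopamine receptor, and npr-11, a neuropeptide receptor (chromosome X, 1200001 to 1300000), went from 237 ± 85.3 to 20.3 ± 7.72 RPM (log2 fold change -3.54). The last bin of chromosome X (chromosome X, 17700001 to 17800000) also fell, but on few reads, 18, 60, 6, 42 and 57 in wild type and 4, 10, 4, 6 and 4 in the null. Its lowest wild type and highest null library were nearly level, at 5.83 and 5.8 RPM.

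Off chromosome X, the bin of sma-2, a Smad of the BMP pathway, zfp-1 and aak-1, the other catalytic subunit of AMP-activated kinase, fell most in RPM among the 12 (chromosome III, 8700001 to 8800000). It held 1978, 3740.5, 1507, 2366 and 2820.0 RPM in wild type and 223, 309.7, 175, 179 and 159 RPM in the null, 11.9 times less in the mean (edgeR log2 fold change -3.57 ± 0.30 (SE), adjusted p = 5.27e-09). The highest null library was far below the lowest wild type library. The bin of fat-5, a fatty acid desaturase, and 7 srh chemoreceptor genes (chromosome V, 17700001 to 17800000) went from 414 ± 165 to 34.4 ± 4.42 RPM, and that of osm-12 and the neuropeptide gene lury-1 (chromosome III, 12100001 to 12200000) from 674 ± 284 to 62.5 ± 12.2 RPM. The remaining 3 lie in the second piRNA cluster and are given with it. All 12 kept their direction with TMM factors and in replicates 1 to 3 alone, and 11 also in replicates 4 and 5 alone, where the last bin of chromosome X was not tested. Only bins without overlap could enter the list, so the direction in each replicate set followed from that choice.

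**Figure D3:**
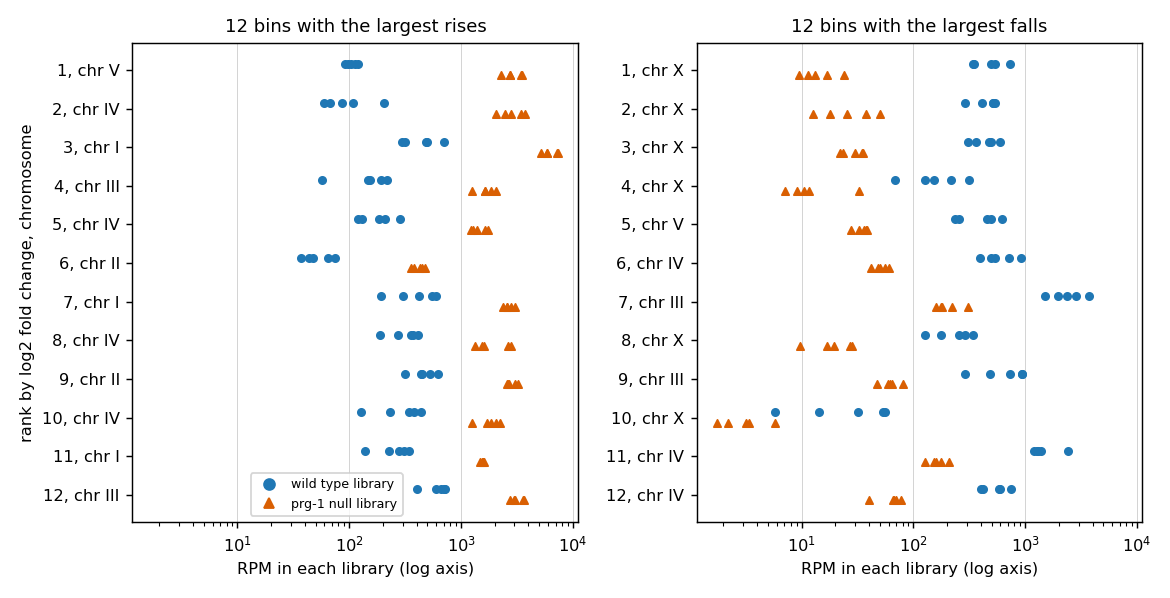
RPM (log axis) of every wild type and prg-1 null library in the 12 bins with the largest rises (left) and the 12 with the largest falls (right), ordered by log2 fold change and labelled by chromosome. In each of the 24 bins the 5 null libraries lie on 1 side of the 5 wild type libraries, which was a condition for being listed. The margin is smallest in the 10th fall, on chromosome X.

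Bins with the most reads mostly did not pass the test. The richest bin (chromosome IV, 12700001 to 12800000) held 117329, 94415, 272972, 86595 and 57052 RPM in wild type and 195465, 128151, 148425, 20831 and 39427 RPM in the null, with wild type replicate 3 highest and null replicate 4 lowest (edgeR log2 fold change -0.24 ± 0.57 (SE), adjusted p = 0.773). Of the 10 richest bins in wild type, 9 were not called. They include 2 with rRNA genes (chromosome I, 15000001 to 15100000 and chromosome V, 17100001 to 17200000), 1 with mir-80 and mir-90 (chromosome III, 8800001 to 8900000), 1 with mir-57 (chromosome II, 7800001 to 7900000) and 1 with mir-81 and mir-82 (chromosome X, 2400001 to 2500000). The last was at 18973, 33674, 15797, 15479.6 and 29768 RPM in wild type and 39716, 46421, 51187, 39167 and 31578 RPM in the null, groups that overlapped (edgeR log2 fold change 0.87, adjusted p = 0.0770). It was called with TMM factors (log2 fold change 1.24, adjusted p = 0.0138). The exception was a bin on chromosome I (chromosome I, 2900001 to 3000000) with parp-1, a poly(ADP-ribose) polymerase, and mir-4931.

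That bin held 82385, 27106, 50299, 38181 and 3003 RPM in wild type replicates 1 to 5 and 2654, 4872, 1464, 11269 and 22614 RPM in null replicates 1 to 5. Wild type replicate 5 lay among the null libraries, with null replicates 2, 4 and 5 above it (edgeR log2 fold change -2.23 ± 0.69 (SE), adjusted p = 0.0132). In replicates 4 and 5 alone the log2 fold change was -0.28 and not called. A second large fall rested on the same replicates 1 to 3: the bin of rde-12, a helicase of RNA interference (chromosome V, 13600001 to 13700000), held 4438, 2799, 7099, 1237 and 797 RPM in wild type and 887, 1119, 616, 1009 and 1378 RPM in the null. Its log2 fold change was -1.71 over all libraries (adjusted p = 0.00661), -2.45 in replicates 1 to 3 and 0.23 in replicates 4 and 5. The bin of the chitinase gene cht-1 had the largest fall in RPM on chromosome X (chromosome X, 3300001 to 3400000), from 4151, 3270.1, 6093, 11015 and 3434 to 4024, 2254, 1526, 1449.5 and 1842 RPM (edgeR log2 fold change -1.33 ± 0.38 (SE), adjusted p = 0.0081). Wild type replicate 4 was far above the rest, null replicate 1 overlapped with wild type, and with TMM factors the bin was not called (edgeR adjusted p = 0.0508). In contrast, the bin of xrn-2, a nuclear exonuclease, and eat-2, an acetylcholine receptor subunit of the pharynx (chromosome II, 14100001 to 14200000), fell in both sets, from 1437, 1885, 825, 2214 and 2399 to 259, 338, 224, 414 and 331 RPM (edgeR log2 fold change -2.48 ± 0.28 (SE), adjusted p = 3.29e-07).

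The largest rise in RPM on chromosome II was in the bin of mir-72 and vab-19 (chromosome II, 2400001 to 2500000), with 1731, 6481, 3289.6, 2082 and 4858 RPM in wild type and 8237, 8027, 10579.9, 5939 and 4807 RPM in the null. The groups overlapped, and the call (log2 fold change 1.03, adjusted p = 0.0408) was lost when any of 6 single libraries was left out. Chromosome X had its largest rise in the bin of dlg-1, a scaffold of epithelial junctions (chromosome X, 5400001 to 5500000), at 403 ± 126 RPM in wild type against 801 ± 151 RPM in the null, where no library overlapped (edgeR log2 fold change 0.99 ± 0.23 (SE), adjusted p = 0.00148).

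The piRNA genes of chromosome IV lie in a left cluster of 25 bins (cluster 1, 4500001 to 7000000), with 2816 annotated piRNA genes, and a right cluster of 37 bins (cluster 2, 13500001 to 17200000), with 11388. Both also hold protein-coding genes, 480 in cluster 1 and 458 in cluster 2. In cluster 2, 23 bins were lower in the null (62.2% of its bins) and 3 higher, with a median log2 fold change of -1.0. In cluster 1, 5 bins were lower and 4 higher, with a median of -0.17. The rest of chromosome IV had 20 lower and 15 higher of 113 bins and a median of -0.15 (with TMM factors 18 lower and 31 higher, median 0.17), and all 1006 bins 284 lower, 121 higher and a median of -0.29. With TMM factors cluster 2 had 21 lower and 5 higher bins (median -0.73), and cluster 1 had 1 lower and 7 higher (median 0.17). The fall of cluster 2 was there in replicates 1 to 3 (median -1.14) and in replicates 4 and 5 (median -0.83), and its lower bins numbered 21 to 23 with 1 library left out. Smaller counts moved more: cluster 2 had 1 higher bin without wild type replicate 1 or null replicate 4 or 5, and cluster 1 had 2 lower bins without wild type replicate 1 and 3 without null replicate 3.

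Summed over its 37 bins, cluster 2 held 13778, 17753, 10713, 13371 and 16592 RPM in wild type replicates 1 to 5 and 10977, 11241, 10448, 11899 and 12446 RPM in null replicates 1 to 5, sums that overlapped. Its 23 lower bins held 6389.7 RPM in wild type against 1588 RPM in the null, its 3 higher bins went from 2454 to 4848 RPM, and the 11 that were not called held 5598 and 4967 RPM. These sums by call describe bins sorted by the same contrast and are not tested. Cluster 1 held 55819, 70796, 76579, 35562 and 43492 RPM in wild type and 69839.6, 74938, 85251, 46903 and 36212 RPM in the null, and 2 of its bins, that of mir-228 and that of rpl-18A, held 79.7% of them in wild type and 76.3% in the null.

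The 3 bins of cluster 2 with the lowest fold change lie near the right end of the chromosome. The bin of rho-1, a small GTPase, and the dynein light chain genes dlc-3 and dlc-4 (chromosome IV, 16400001 to 16500000, 193 piRNA genes) held 498, 925, 391, 541 and 711 RPM in wild type and 48.1, 49.9, 55.5, 60.8 and 41.3 RPM in the null (edgeR log2 fold change -3.58 ± 0.27 (SE), adjusted p = 1.46e-09). The bin of snr-1, a spliceosomal Sm protein (chromosome IV, 17000001 to 17100000, 178 piRNA genes), held 1297, 2389.5, 1281, 1208 and 1376 RPM in wild type and 158, 177, 126, 209.9 and 154 RPM in the null (edgeR log2 fold change -3.19 ± 0.27 (SE), adjusted p = 6.04e-09). The bin of arf-6, a GTPase of membrane traffic, and rad-54.B (chromosome IV, 16900001 to 17000000, 184 piRNA genes) fell from 548 ± 142 to 63.9 ± 14.2 RPM (log2 fold change -3.10). In all 3 the null libraries were close together and none overlapped with wild type. Lower bins were also adjacent: 6 in a row from 15700001 to 16300000 and 5 in a row from 15100001 to 15600000, the former being the longest run of lower bins in the genome. A run of 5 lower bins also lay on chromosome V (13200001 to 13700000, median log2 fold change -1.71), with only 5 piRNA genes. Over the genome, lower bins fell into 209 runs of which 155 were single bins, and higher bins into 107 runs of which 94 were single.

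A few bins of the clusters went the other way. In cluster 2 the bin of ugt-22 and nyn-1 (chromosome IV, 13600001 to 13700000, 221 piRNA genes) rose from 559, 666, 341, 828 and 912 to 1725, 1594, 1622, 1574 and 2034 RPM (edgeR log2 fold change 1.37 ± 0.26 (SE), adjusted p = 0.000228). Its groups did not overlap. The bins of gdi-1 (chromosome IV, 14700001 to 14800000) and of mir-789.1 (chromosome IV, 16700001 to 16800000) were higher by 0.83 and 0.75 with overlapping groups, and the first lost its call when any of 4 single libraries was left out, the second with any of 5. The gdi-1 bin was not called in replicates 4 and 5 alone (0.67, edgeR adjusted p = 0.0786). The mir-789.1 bin was not called in replicates 1 to 3 alone (0.52, edgeR adjusted p = 0.308). In cluster 1 the bin of skn-1, a transcription factor of the stress response, and bec-1, an autophagy protein (chromosome IV, 5600001 to 5700000, 143 piRNA genes), rose from 343, 335, 153, 339 and 380.0 to 993, 1279, 1525, 2114 and 1661 RPM (edgeR log2 fold change 2.29 ± 0.27 (SE), adjusted p = 7.15e-07). The bin of spe-51 and ubc-9, the SUMO-conjugating enzyme (chromosome IV, 4600001 to 4700000, 1 piRNA gene), rose by 1.94, and that of kcc-2 and cpi-1 (chromosome IV, 6000001 to 6100000, 210 piRNA genes) by 1.71, both without overlap.

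The falls in cluster 1 were small. The lowest bin (chromosome IV, 6800001 to 6900000, with lip-1, a phosphatase of MAP kinase signalling) was at 514, 183, 157, 189 and 179 RPM in wild type and 155, 145, 97.9, 121 and 99.5 RPM in the null (edgeR log2 fold change -0.99 ± 0.29 (SE), adjusted p = 0.00937). It rested on wild type replicate 1, without which the log2 fold change was -0.52 (edgeR adjusted p = 0.0746), and was not called with TMM factors (edgeR adjusted p = 0.0678). Those of sar-1 (chromosome IV, 4500001 to 4600000) and of htp-2, a meiotic chromosome axis protein (chromosome IV, 6400001 to 6500000), had log2 fold changes of -0.80 and -0.76 and were called, the latter not with TMM factors. The number of piRNA genes in a bin had a weak relation to its fold change: Spearman's rho was -0.12 over the 37 bins of cluster 2, -0.09 over the 25 of cluster 1 and -0.27 over the 175 of chromosome IV. Of the 51 bins with at least 100 piRNA genes, 26 were lower and 6 higher (median -0.71), which is 51% and 11.8% against 28.2% and 12% of all bins. With TMM factors 21 were lower and 9 higher (median -0.41).

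**Figure D4:**
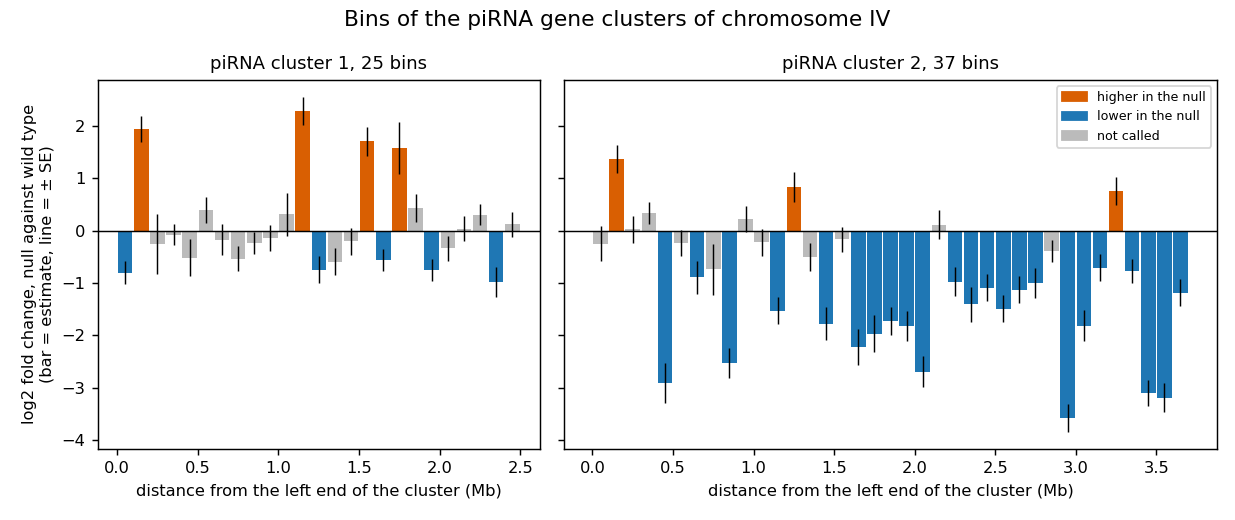
Log2 fold change of the prg-1 null against wild type ± SE (edgeR, 5 libraries each) of each 100 kb bin of piRNA cluster 1 (25 bins) and cluster 2 (37 bins) against distance from the left end of the cluster in Mb. In cluster 2, 23 bins are lower and 3 higher, and in cluster 1, 5 are lower and 4 higher.

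Among whole chromosomes, X had few rises. Of its 178 bins 4 were higher (2.25%) and 56 lower (31.5%), with a median log2 fold change of -0.46, and with TMM factors 11 were higher and 30 lower (median -0.21). Without null replicate 1 or 5, 2 were higher. On the autosomes between 11.9% of bins (V) and 16.3% (II) were higher and between 24.5% (I) and 29.5% (V) lower. With TMM factors higher bins outnumbered lower ones on each autosome, at 53 and 22 on I, 41 and 34 on II, 44 and 29 on III, 43 and 40 on IV, and 46 and 36 on V. With each chromosome cut into 3 equal parts, the right part of X had 20 lower and 0 higher of 59 bins by edgeR. That is 33.9% lower and 0% higher, beside 28.2% and 12% of all bins. At an unadjusted p under 0.05 that part had 25 lower and 1 higher. By DESeq2 it had 14 lower and 1 higher, and with TMM factors 12 lower and 2 higher. The summed level of X was 64695, 85619, 63038, 56566 and 76761 RPM in wild type replicates 1 to 5 and 82939, 93200.5, 98921, 71345 and 61907 RPM in null replicates 1 to 5, groups that overlapped. Its bins that were not called, such as that of mir-81 and mir-82, held 73.6% of these reads in wild type and 90.5% in the null. The split follows calls of this same contrast, so a shift of these shares is largely built in and was not tested. Over all chromosomes, 95 higher and 195 lower bins lay among the 671 of the outer parts and 26 higher and 89 lower among the 334 of the central parts, beside 12% higher and 28.2% lower of all bins. With TMM factors the balance turned, to 171 higher and 134 lower in the outer and 67 higher and 57 lower in the central parts. The central part of chromosome IV had 4 higher and 10 lower of 58 bins, which turned to 15 higher and 7 lower with TMM factors. Its right part, which holds cluster 2, had 6 higher and 30 lower of 58 (TMM 9 and 27).

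Bins with genes of sperm formation and function went both ways. The list holds every spe and fer gene of the annotation, named for sperm-defective or fertilization-defective mutants, and falls into 35 bins. Of these 9 were higher in the null (25.7%), 7 were lower (20%) and 19 were not called, with a median log2 fold change of 0.01. Of all bins 12% were higher and 28.2% lower. With TMM factors 17 were higher and 5 lower (median 0.35), and without wild type replicate 3, 12 were lower. In all 9 higher bins every null library was above every wild type library. The summed level of the 35 bins was 19641, 22261, 12550.3, 23648 and 26428 RPM in wild type and 25108, 27358, 24708, 32656 and 32674 RPM in the null, with the highest wild type library above the lowest 2 null libraries.

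The bin of spe-41, a calcium channel of the sperm surface (chromosome III, 3400001 to 3500000), held 510.4, 526, 239, 531 and 703 RPM in wild type and 1979, 2221, 2060.3, 2534 and 2799.5 RPM in the null (edgeR log2 fold change 2.21 ± 0.26 (SE), adjusted p = 4.67e-07). That of spe-6, a casein kinase that restrains sperm activation (chromosome III, 11500001 to 11600000), held 272, 342, 117, 274 and 295 RPM in wild type and 1016, 999, 1008, 1174 and 1059 RPM in the null (edgeR log2 fold change 2.01 ± 0.26 (SE), adjusted p = 1.56e-06). In both bins wild type replicate 3 was the lowest library by a wide margin and the null libraries were close together. The bins of spe-8, spe-9, which is needed at the sperm surface for fertilization, and spe-19 rose by 1.07, 0.99 and 0.79. Among the lower bins, that of spe-47 (chromosome I, 2600001 to 2700000) fell from 3127 ± 1505 to 1102 ± 377 RPM (SD, n = 5) with overlapping groups. The bins of spe-54, spe-46, spe-21, spe-5, a proton pump subunit, and spe-58 had log2 fold changes of -1.16, -1.09, -1.04, -0.98 and -0.55 and were called. The spe-54 call was lost when any of 6 single libraries was left out, and without wild type replicate 1 the log2 fold change was -0.29 (edgeR adjusted p = 0.520). It was also lost with TMM factors (edgeR adjusted p = 0.150), with DESeq2 (adjusted p = 0.0858) and in replicates 4 and 5 alone (log2 fold change -0.53, edgeR adjusted p = 0.254). The spe-58 call was lost with TMM factors (log2 fold change -0.23, edgeR adjusted p = 0.157) and when any of 7 single libraries was left out. It was not made in replicates 1 to 3 alone (-0.43, edgeR adjusted p = 0.404) but was in replicates 4 and 5 alone (-0.70, edgeR adjusted p = 0.0414).

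Major sperm protein genes (msp), which encode the cytoskeletal protein of nematode sperm, lie in 15 bins. Of these 0 were higher and 2 lower, those of msp-64 (-0.88 on the log2 scale) and of msp-3 and msp-42 (-0.82), both with overlapping groups and neither called with TMM factors. The msp-64 call was also lost with DESeq2 (adjusted p = 0.131), and without wild type replicate 1, 2 or 3 or null replicate 3, 4 or 5. That of msp-3 and msp-42 was lost without wild type replicate 5 or null replicate 3. Thus 13.3% of the msp bins were lower and 0% higher, beside 28.2% and 12% of all bins. At an unadjusted p under 0.05 edgeR had 0 higher and 4 lower, and DESeq2 had 1 higher and 1 lower. The median was -0.40, and with TMM factors 1 bin was higher and 0 lower (median -0.05), with 1 lower at an unadjusted p under 0.05. Histone genes lie in 17 bins, of which 6 were lower and 1 higher, 35.3% and 5.88% beside 28.2% and 12% of all bins (median -0.50, and with TMM factors 4 lower and 1 higher, median -0.20). The lowest was a cluster of 6 histone genes from his-29 to his-34 (chromosome IV, 8300001 to 8400000), with 656, 945, 424, 911 and 978 RPM in wild type and 239, 247, 168, 347 and 271 RPM in the null (edgeR log2 fold change -1.62 ± 0.29 (SE), adjusted p = 0.000117). The higher bin holds 14 histone genes, among them his-17 to his-22 (chromosome V, 8800001 to 8900000). It was at 591, 997, 513, 1135 and 1577 RPM in wild type and 1593, 1438, 1692, 1767 and 2022 RPM in the null, where wild type replicate 5 overlapped (edgeR log2 fold change 0.82 ± 0.28 (SE), adjusted p = 0.0218). A bin with 13 histone genes on chromosome II (chromosome II, 13800001 to 13900000) was at 2232 ± 3334 RPM in wild type against 1807 ± 301 RPM in the null and was not called (edgeR adjusted p = 0.730). Wild type replicate 5 held 8195 RPM there and the other wild type libraries 609.9 to 792 RPM, below every null library. Without it the bin was called higher (log2 fold change 1.29, edgeR adjusted p = 0.0130), as it was in replicates 1 to 3 alone (1.14, edgeR adjusted p = 0.0119). Among the histone bins 0 were higher without wild type replicate 1 or null replicate 5, and 2 without wild type replicate 5.

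Genes of the piRNA and germline small RNA pathway were found for 23 of the 24 listed and lie in 21 bins. By edgeR 5 of these bins were lower (23.8%) and 0 higher (median -0.10), beside 28.2% lower and 12% higher of all bins. At an unadjusted p under 0.05 there were 6 lower and 1 higher, and DESeq2 had 5 lower and 2 higher. With TMM factors 4 were lower and 3 higher (median 0.21), without wild type replicate 3 there were 8 lower, and without wild type replicate 4 or 5 there was 1 higher. Besides the prg-1 bin, the lower ones were those of rde-1, the Argonaute of RNA interference from outside double-stranded RNA, together with tofu-1 (-1.70 on the log2 scale, chromosome V, 9900001 to 10000000), of tofu-6 (-1.49), of parn-1 (-1.47) and of alg-4 (-0.74). The tofu genes act in making piRNAs, parn-1 trims their ends and alg-4 encodes an Argonaute of the male germline. The parn-1 bin, which also holds the histone gene his-74, went from 646, 732, 345, 586 and 695 to 208, 256, 171, 253 and 198 RPM, with no overlap. The bin of prde-1, which acts in piRNA transcription, was at 1187 ± 454 RPM in wild type against 1840.0 ± 162 RPM in the null and was not called (edgeR log2 fold change 0.63, adjusted p = 0.0566), but it was called higher with TMM factors (1.01, edgeR adjusted p = 0.000417) and by DESeq2 (0.91, adjusted p = 5.56e-05). The bins of csr-1, of ego-1 with rrf-1, of hrde-1 and of wago-1, which act in the secondary small RNA pathways, had log2 fold changes of -0.02, 0.01, -0.44 and 0.16 and were not called. With TMM factors the csr-1 bin was higher (0.29, edgeR adjusted p = 0.0463), and without wild type replicate 3 the hrde-1 bin was lower (-0.58, edgeR adjusted p = 0.0356). The alg-4 call was lost with TMM factors (-0.40, edgeR adjusted p = 0.0690) and without wild type replicate 4 or 5 or null replicate 3. In replicates 1 to 3 alone the alg-4 bin was not called (-0.52, edgeR adjusted p = 0.290), while in replicates 4 and 5 alone it was lower (-0.95, edgeR adjusted p = 0.00523).

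**Figure D5:**
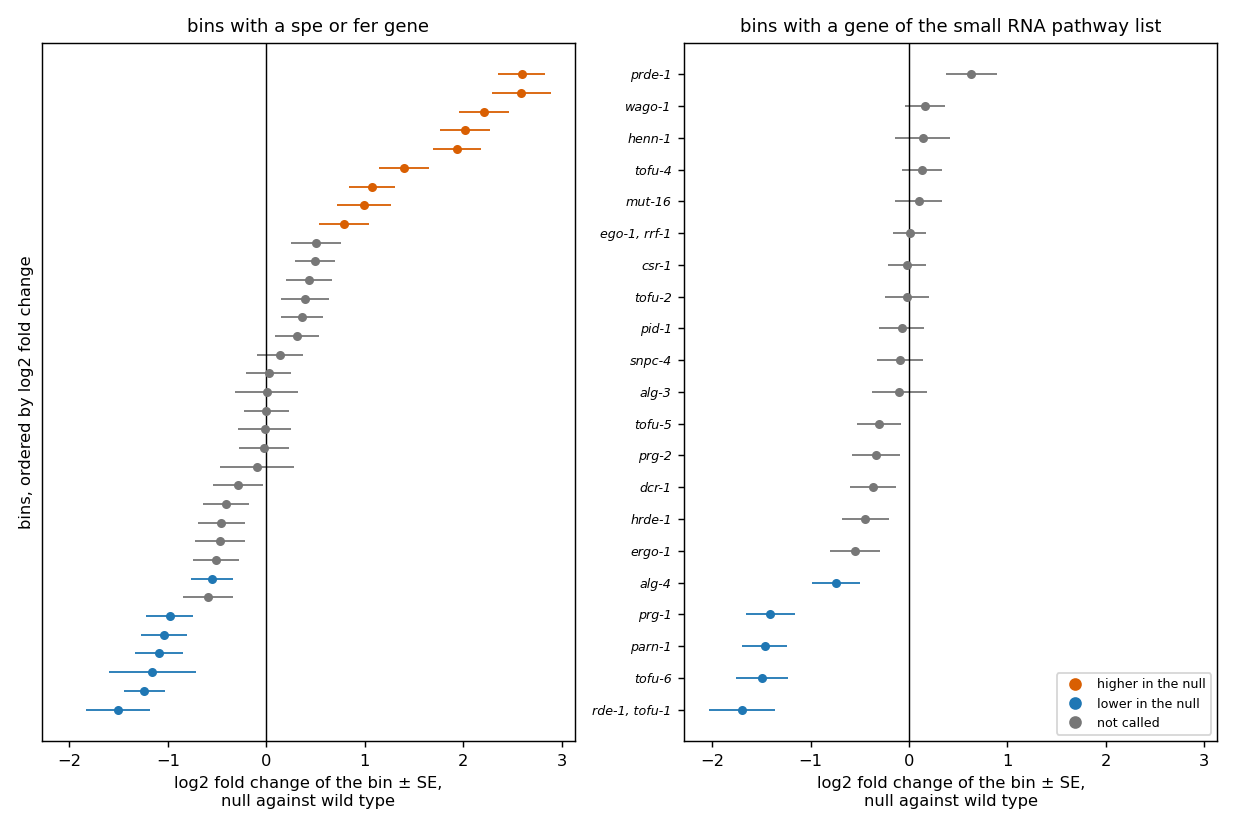
Log2 fold change ± SE (edgeR, 5 prg-1 null against 5 wild type libraries) of each bin that holds a spe or fer gene (left, 35 bins) or a gene of the small RNA pathway list (right, 21 bins, named by the listed gene), ordered by log2 fold change in both panels. On the left 9 bins are higher and 7 lower, and on the right 0 are higher and 5 lower. Of all bins 12% were higher and 28.2% lower.

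MicroRNA genes are present in 182 bins, which took 492617 ± 35190.1 RPM in wild type against 503106 ± 47295 RPM in the null (SD, n = 5). Of these bins 26 were higher and 39 lower (median -0.19, TMM 48 and 26). That is 14.3% and 21.4%, beside 12% and 28.2% of all bins. Bins read as markers of tissues were not called. That of mir-1, a muscle miRNA, was at 7921 ± 2944 RPM in wild type against 6585 ± 580.0 RPM in the null, and the same bin holds an rRNA gene. That of mir-71, found in many tissues, was at 1703 ± 714 and 2007 ± 477 RPM. The bin of mir-35, a miRNA of germline and embryo, was at 583 ± 70.1 RPM in wild type against 445 ± 101 RPM in the null (edgeR log2 fold change -0.39, adjusted p = 0.164), and in replicates 4 and 5 alone it was lower (-0.73, adjusted p = 0.0308). The bins of the neuronal markers mir-124 and lsy-6 had log2 fold changes of 0.34 and 0.04, and those of the timing miRNAs lin-4 and let-7 of 0.34 and 0.04. The mir-124 bin passed when TMM factors were used (log2 fold change 0.69, adjusted p = 0.000853). The bins of xol-1, the switch gene of sex determination, and of bath-45 had log2 fold changes of -0.35 and -0.46 and were not called.

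For other classes of RNA genes the background is all bins, of which 12% were higher and 28.2% lower (TMM 23.7% and 19%). Bins with a tRNA gene numbered 297, of which 29 were higher and 87 lower, or 9.76% and 29.3% (median -0.37, TMM 57 and 50). Bins with a small nuclear or nucleolar RNA gene numbered 318, of which 44 were higher and 82 lower, or 13.8% and 25.8% (median -0.24, TMM 83 and 55). Both classes stayed close to the background. Of the 5 bins with an rRNA gene 0 were called by edgeR, 0 at an unadjusted p under 0.05 and 0 by DESeq2, while with TMM factors 1 was higher. Of all bins 40.3% were called by edgeR, but 5 bins are too few for a comparison of shares. Their summed level was 122673, 67144, 88925, 250503 and 157189 RPM in wild type and 73861, 73154, 62489.8, 173877 and 184387 RPM in the null. Here replicates 4 and 5 were the highest of both genotypes. The part that rRNA content plays in the bin results was not tested. With the 3 richest bins left out of the library size, 465 bins were called, 329 of them lower.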

How the data were processed

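Small RNA of male worms was sequenced in 16 libraries of 4 genotypes, of which the 5 prg-1 null and 5 wild type libraries were compared. The authors deposited raw counts: reads per library and class, sense and antisense counts per piRNA name, and counts in 1006 bins of 100 kb of ce11, per the file headers. Reads were handled with cutadapt 3.7 and FastQC 0.12.0, per the submitters' processing notes, and the aligner is not named in the sources used here. Column names tie the tables to libraries, and 12 columns of the piRNA table were not used.

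From these counts, RPM is reads over the genome-mapped total. Bins and single piRNAs with at least 10 counts in at least 3 libraries were tested with edgeR 4.0.16 in R 4.3.3 (quasi-likelihood F test, genome-mapped totals as library sizes without further factors, Benjamini-Hochberg adjustment, adjusted p under 0.05). Bins were fitted in 1 model of all 16 libraries, and piRNAs in replicates 1 to 3 of both genotypes. The SE of a log2 fold change is its size over the square root of F. DESeq2 1.42.0 and TMM factors were alternatives. Single values per library were compared by exact two-sided permutation tests. The edgeR script was tested on simulated data. Bins were annotated by the midpoints of 46926 RefSeq genes of WBcel235, the same assembly as ce11.

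Bins are named if they were among the 12 largest rises or falls without overlap, the 10 richest in wild type, the 3 lowest or highest of a piRNA cluster, a marker bin, or the largest called rise or fall in RPM of a chromosome. Bins of listed genes (spe, fer, msp, histone and small RNA pathway genes) are named beyond that rule. A few bins of these lists are counted but not reported singly here. The members and lists were chosen with earlier results of these data known. Precision is limited by counting, with 17 to 39 null 21U-only reads in replicates 1 to 3, and intervals (Wilson) and floors (3 counts) cover counting error only.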

Additional observations from a re-analysis of the deposited data

Results flagged for a closer look

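In 144 groups of 5 libraries tested for a value far from the other 4, 6 held one, and chance flags about 1 in 20 groups. Chromosome M took 0.507% of reads in wild type replicate 3, against 1.00 to 1.15% in the other wild type libraries. That library was also lowest for the skn-1 bin (chromosome IV, 5600001 to 5700000), at 153 RPM with the next at 335 RPM, and highest for the richest bin (chromosome IV, 12700001 to 12800000), at 272972 RPM with the next at 117329 RPM. Wild type replicate 1 was highest for the lip-1 bin (chromosome IV, 6800001 to 6900000), at 514 RPM with the next at 189 RPM. Wild type replicate 2 was highest for the snr-1 bin (chromosome IV, 17000001 to 17100000), at 2389.5 RPM with the next at 1376 RPM. Null replicate 1 was highest for the fbxa bin at the left end of X (chromosome X, 100001 to 200000), at 32.9 RPM with the next at 11.6 RPM. Of these only the lip-1 call was lost without the library that stood apart.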

How the results depend on the processing

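Below, a ratio is the null over the wild type mean. Replicates 1 to 3 alone cannot go below an exact permutation p of 0.1, replicates 4 and 5 alone not below 0.333, and a replicate block of 5 pairs not below 0.0625, so calls lost there say nothing about stability. In that order the ratios were 0.0104, 0.00753 and 0.00957 for 21U-only reads, 0.320, 0.727 and 0.471 for other sense reads, 0.118, 0.327 and 0.185 for all sense reads, 0.0893, 0.0227 and 0.0657 for the 21U-only percentage and 1.36, 1.39 and 1.37 for the genome-mapped percentage. Same-numbered libraries had correlated deviations over bins of 0.20, 0.01, 0.10, 0.35 and 0.22, and the labels do not say that a number marks a shared culture, so the numbers were not taken as pairs. With the block 406 bins were called, but the parp-1 bin (chromosome I, 2900001 to 3000000; edgeR adjusted p = 0.0832) and the rde-12 bin (chromosome V, 13600001 to 13700000; edgeR adjusted p = 0.0803) were not. The rde-12 bin was reversed in replicates 4 and 5 alone (log2 fold change 0.23).

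Other sense reads had a ratio of 0.650 over total reads (exact permutation p = 0.159), and 0.819 in the libraries whose titles lack the word piRNA, which include 1 null library and allow no test. Those libraries also gave chromosome share differences, null minus wild type, of 5.65 percentage points for I, 0.808 for M and -0.476 for X, against -3.03, 0.105 and 1.23 over all libraries. Libraries whose titles hold that word gave a genome-mapped ratio of 1.44 (exact permutation p = 0.0571), and leaving out 1 library gave ratios from 1.29 to 1.48. The cause of these changes was not tested.

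The 121 higher bins became 238 with TMM factors and 217 with DESeq2. All called bins numbered 300 to 465 over the alternatives run, and 342 to 441 with 1 library left out. Of single piRNAs, 89 of 1444 were called lower without the filter, and 0 to 19 with 1 library left out, where 6 to 27 passed the filter. With the total of piRNA reads as library size 8 were higher, among them cel-piR-1592, cel-piR-15421 and cel-piR-15075, which turned to log2 fold changes of 2.05, 2.42 and 2.63. Of 579 comparisons of a named bin with another setting, leave-one-out aside, 553 kept direction and call. For named bins chosen for having no overlap, the direction in each replicate set was fixed by that choice.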
